A study of Homo sapiens with 14 samples.

Results

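The mRNAs of 10 genes of the integrated stress response were followed through the polysome gradient of MDA-MB-231 cells, a human breast cancer line, with and without silencing of the translation factor DAP5. The genes were chosen by name out of the 58434 gene symbols in the count file. ATF4, ATF5, DDIT3, PPP1R15A and PPP1R15B stand for mRNAs with upstream open reading frames (uORFs), and ASNS, TRIB3, CHAC1, SESN2 and DDIT4 stand for genes that the ATF4 protein activates. MB-231-shNSi cells carried a non-silencing shRNA and MB-231-shDAP5 cells an shRNA against DAP5, both from a doxycycline-inducible lentiviral vector in stable lines selected with puromycin and sorted for a red fluorescent reporter. Every culture of both lines received doxycycline at 1 µg/ml for 6 days. For each line 2 replicates were sequenced as total mRNA, as poorly translated light polysome mRNA and as well-translated heavy polysome mRNA, and the shNSi replicates also as a moderate polysome pool, which makes 14 libraries. The labels call the samples replicates, the study describes its data sets as coming from experiments done independently of each other, and the replicates are called cultures here. The p-values measure the spread between them. With a culture left out, 1 culture of its line remains, and the p-values then rest on the spread of the other line.

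The integrated stress response begins when kinases phosphorylate the initiation factor eIF2, which lowers the supply of initiator tRNA to the ribosome. Most mRNAs are then translated less, while a few whose leaders hold uORFs are translated more, ATF4 being the classical case. Ribosomes that have translated a short first uORF and are late to regain initiator tRNA scan past a later, inhibitory uORF and start at the ATF4 coding sequence. ATF4 is a transcription factor that induces genes of amino acid supply and of stress feedback. PPP1R15A and PPP1R15B encode subunits that direct protein phosphatase 1 to eIF2 and so end the response. DAP5, the product of EIF4G2, is a relative of the scaffold eIF4G that lacks the site for the cap-binding protein eIF4E.

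The first group of genes is known for control through uORFs, so the upstream start codons of their leaders in the GENCODE v29 annotation are shown with the 6 bases before and the 4 bases after them, and with ATG in capitals. ATF4 is shown on its annotated transcript with a 280-nucleotide leader and DDIT3 on the one with a 180-nucleotide leader, since their uORFs differ between annotated leaders.
ATF4, uORF of 3 codons: gccaccATGgcgt
ATF4, uORF of 59 codons that overlaps the main coding sequence: taagccATGgcgc
ATF5, uORF of 3 codons: ccggccATGgctc
ATF5, uORF of 59 codons that overlaps the main coding sequence: gcagccATGgagt
DDIT3, uORF of 34 codons: cgtatcATGttaa
DDIT3, uORF of 31 codons: ttaaagATGagcg
DDIT3, uORF of 73 codons that overlaps the main coding sequence: aagcagATGtgct
PPP1R15A, uORF of 22 codons: gatcttATGcaag
PPP1R15A, uORF of 26 codons: ggtgagATGaacg
PPP1R15B, uORF of 8 codons: ctatccATGgtgt
PPP1R15B, uORF of 51 codons: gccaggATGgaag
ATF4, main coding sequence: cgcaacATGaccg
ATF5, main coding sequence: acagccATGtcac
On the leaders shown ATF4 and ATF5 shared a layout, a 3-codon uORF followed by a 59-codon uORF that runs past the main start codon. The whole 3-codon uORF reads as follows, with its start codon in capitals.
ATF4: ATGgcgtattag
ATF5: ATGgctctgtag
In ATF4 a still shorter uORF, a start codon followed directly by a stop codon, lay ahead of both. In the ATF4 transcript chosen by its APPRIS rank, with a leader of 882 nucleotides, the overlapping uORFs had 63 and 50 codons instead. Another annotated ATF5 leader, of 582 nucleotides, held further uORFs ahead of the 3-codon one. In PPP1R15A and PPP1R15B each of the 2 uORFs ended within the leader. In the transcript chosen for DDIT3 by its APPRIS rank, the first upstream start codon was in frame with the main coding sequence, and the 34-codon uORF was seen in the other annotated leaders. In GRCh38, ATF4 lies at chr22:39519695-39522685 and ATF5 at chr19:49928702-49933935, both on the plus strand, and DDIT3 lies at chr12:57516588-57521737 on the minus strand. PPP1R15A is at chr19:48872392-48876057 on the plus strand and PPP1R15B at chr1:204403387-204411791 on the minus strand. The submitters' processing notes name the older build hg19 for the counts, and no count was placed by these positions.

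**Figure D1:**
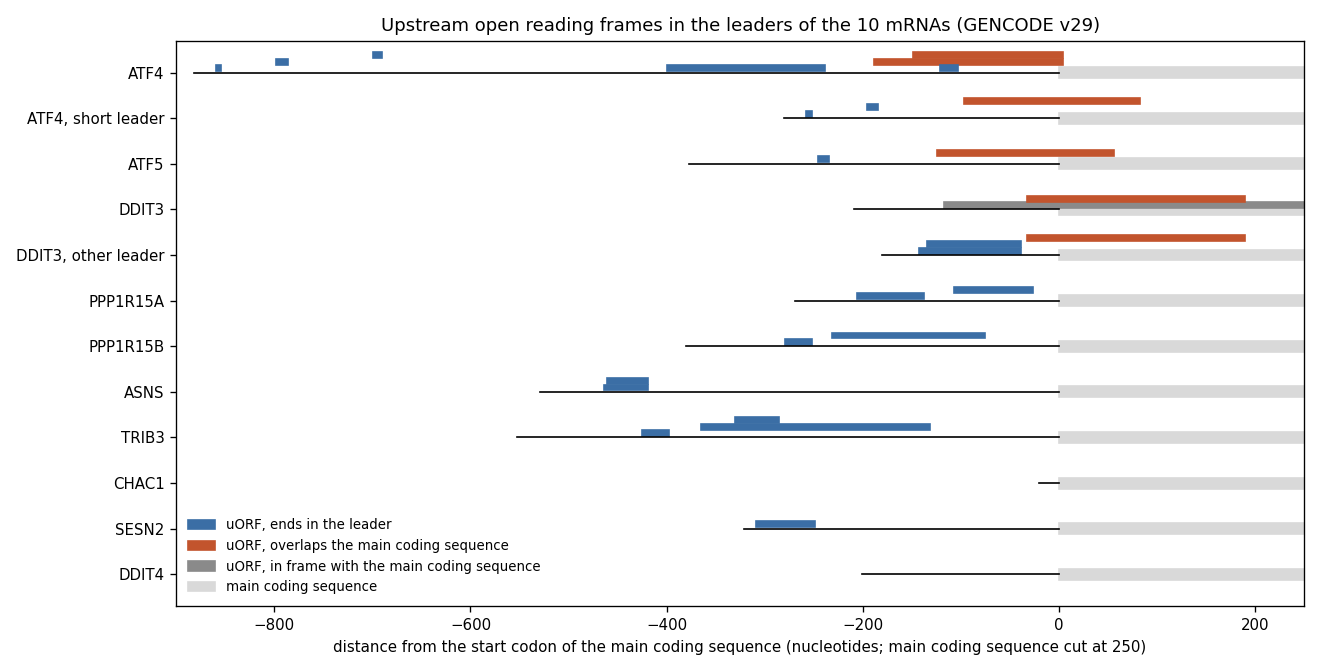
Leaders of the 10 mRNAs in GENCODE v29, drawn to scale as nucleotides from the main start codon, with uORFs as boxes coloured by where they end. ATF4, ATF5 and DDIT3 have a uORF that overlaps the main coding sequence (grey), and CHAC1 and DDIT4 have none in the transcript shown.

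Upstream start codons were not limited to the uORF group. By the annotated principal transcript 8 of the 10 mRNAs had at least 1, against 51.8% of 18876 protein-coding genes. The uORF mRNAs among them were chosen for their uORFs, so counts over the 10 cannot measure an excess over all genes. TRIB3 had 3 and SESN2 had 1, ASNS had between 0 and 3 according to the transcript, and CHAC1 and DDIT4 had 0. By the longest annotated leader it was 9 of 10, against 63.8% of genes, and DDIT4 was the exception.

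The ATF4 protein, paired with a C/EBP protein, binds composite elements of the form TGATGNAA, which were searched on both strands of the promoter, from 250 bases before to 50 bases after the annotated start (RefSeq, GRCh38.p14). All 10 genes had a promoter in the table, and 3 of them held a match, against 3.67% of 27305 promoters. The matches, in capitals within 28 bases read in the direction of the gene, were as follows.
ASNS, chr7:97872459-97872486, minus strand: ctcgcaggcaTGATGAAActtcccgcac
CHAC1, chr15:40953252-40953279, plus strand: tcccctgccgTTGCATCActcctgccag
PPP1R15B, chr1:204412027-204412054, minus strand: ccgccccggcTGATGCAAcctcacgctg
The match in CHAC1 is on the opposite strand. The match in ASNS shares its bases with the 2 upstream start codons in the leader of its GENCODE transcript. The 2 annotations place the start of ASNS differently, and these bases were counted under both. The stricter letters TGATGCAA were found in 2 of the 10 promoters, those of CHAC1 and PPP1R15B, and in 0.923% of all promoters. A match is a run of letters and not a measured binding site, and elements outside this window were not searched.

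The authors deposited whole-number read counts, between 25899838 and 30795910 in a library, and the 10 mRNAs together took between 0.0919% and 0.365% of them. EIF4G2 fell in total mRNA, from 1391 and 1358 CPM (counts scaled for depth by TMM, the trimmed mean of M-values) in shNSi to 525 and 730.0 CPM in shDAP5, a log2 change of −1.11 (SE 0.18, adjusted p = 0.0172). Without shDAP5 replicate 1 it was −0.90 and no longer called. The call was also lost with library size without TMM (−1.07, adjusted p = 0.0501), with limma (−1.08, adjusted p = 0.143) and with offsets for the length of the coding sequence (−1.08, adjusted p = 0.0534). In heavy and light polysomes EIF4G2 was at −0.86 and −1.33 and was not called (adjusted p = 0.0691 and 0.43). VIM, CD44, EGFR and KRT18, which this line is known to express, were each at or above 38.8 CPM in every library. On silencing 3 of these 4 were lower in heavy polysomes (median −1.60), beside 16.7% of all genes (median 0.09). All 4 were higher in heavy than in light polysomes of shNSi cells (median 2.39), beside 34.7% of all genes (median −0.03). This line is known to lack hormone receptors, and ESR1 stayed at or below 0.606 CPM and PGR at 0 counts. Of markers of other cells PTPRC reached 0.218 CPM, EPCAM 6.10 CPM and COL1A1 84.6 CPM, and COL1A1 was lower in heavy polysomes on silencing (−1.67, adjusted p = 6.37e-05). The part of these markers in the results on the 10 genes was not tested. The shDAP5 light libraries bear the sample code that the shNSi moderate pool bears, and the shDAP5 total libraries are titled total polysome. The former were taken as light, as titled, and the comparisons between the lines that rest on them are also given with the shNSi moderate pool as control. The latter were taken as total mRNA. If they hold polysome RNA, the comparisons in total mRNA and in translation efficiency set polysome RNA of shDAP5 cells beside total mRNA of shNSi cells, and the readings cannot be told apart. Adjusted p values are Benjamini-Hochberg values over the genes of each fit, from the quasi-likelihood test in edgeR, and a gene was called at 0.05. An exact two-sided permutation test of 2 cultures against 2 cannot go below p = 0.333.

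Per kilobase of exon, the only scale on which genes are compared with each other, ATF4 was the highest of the 10 in shNSi total mRNA at 247 ± 33.1 CPM per kb (SD, n = 2) and PPP1R15A followed at 197 ± 16.8. The 2 libraries of each did not overlap with those of the other. DDIT4 stood at 102 ± 6.8 and DDIT3, encoding the death-promoting factor CHOP, at 59.3 ± 4.4. ATF5, PPP1R15B, ASNS and TRIB3 lay between 10.4 and 23.9, ASNS with the widest spread (15.6 ± 8.15), so that it could not be ordered against PPP1R15B and TRIB3. CHAC1 (7.19 ± 2.64) and SESN2 (4.93 ± 0.433) had the lowest means, and CHAC1 could not be ordered against TRIB3, whose libraries overlapped with its own. In shDAP5 total mRNA DDIT4 was second at 219 ± 36.5, above PPP1R15A at 119 ± 21.7.

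**Figure D2:**
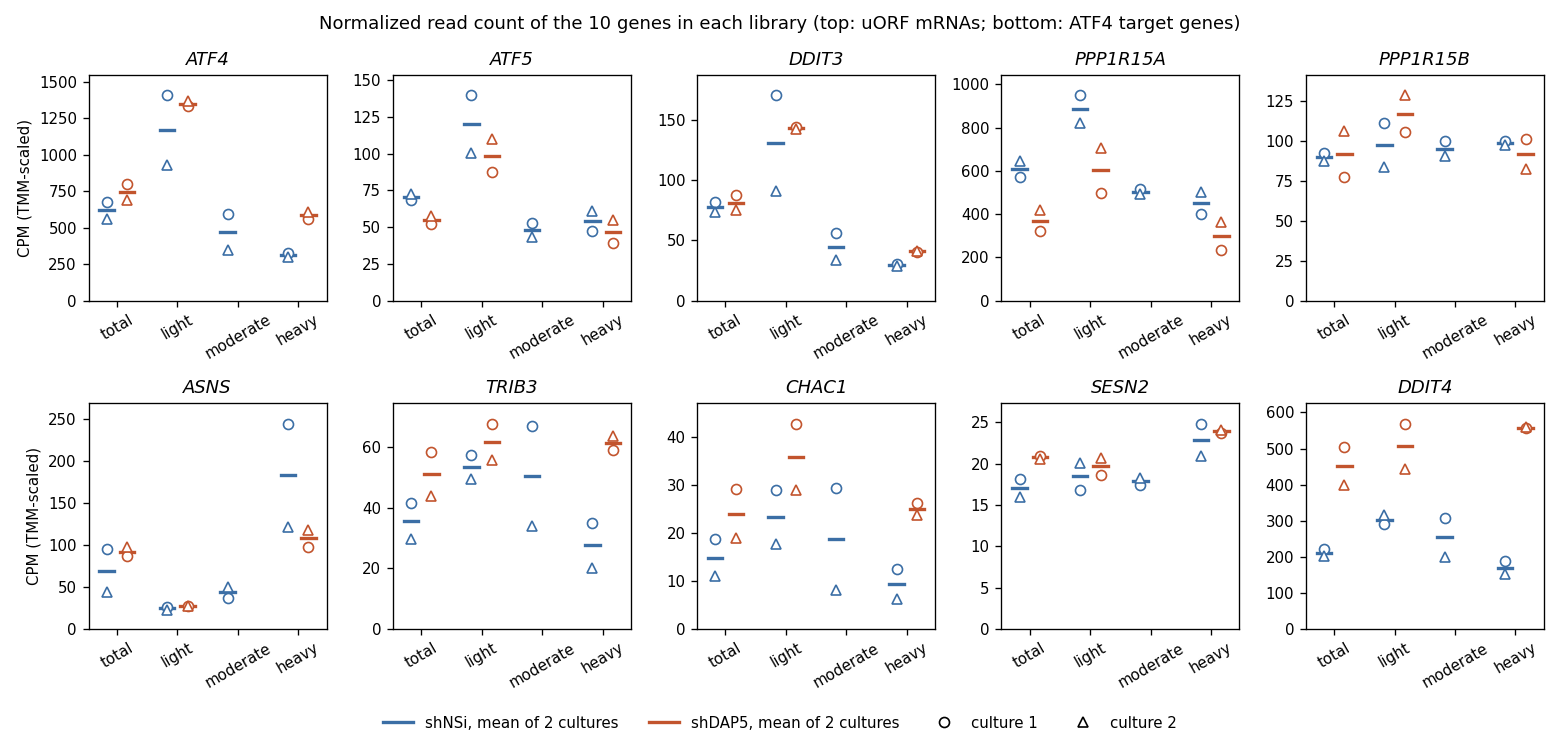
CPM of each gene in each of the 14 libraries, by fraction, with circles for culture 1, triangles for culture 2 and a line at the mean. By their means ATF4, ATF5, DDIT3, PPP1R15A, CHAC1 and TRIB3 peaked in light polysomes in both lines, TRIB3 in shDAP5 being nearly level with heavy. The means of ASNS and SESN2 peaked in heavy polysomes.

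Where each mRNA sat in the gradient of control cells was asked first, by comparing heavy with light polysomes within the same shNSi cultures. ATF4, ATF5, DDIT3 and PPP1R15A were lower in heavy than in light polysomes, PPP1R15B was level, and of the target genes TRIB3, CHAC1 and DDIT4 were lower while ASNS was higher. In all 8 of the 10 mRNAs were called, where 65.2% of 16235 genes were, 7 of them lower (30.5% of genes) and 1 higher (34.7%).

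ATF4 was at 1407 and 926 CPM in light and at 329 and 299 CPM in heavy polysomes of shNSi cells. Both heavy libraries lay well under both light ones, and the log2 change was −1.86 (SE 0.30, adjusted p = 2.16e-05), at the 9.88th percentile of all genes. DDIT3 went from 170.3 and 90.5 CPM to 30.8 and 29.1 CPM, a log2 change of −2.06 (SE 0.26, adjusted p = 1.12e-06) and the lowest percentile of the 10, 7.12. Culture 1 had the higher light value for both genes, so its ratio was the more negative. ATF5, a relative of ATF4 that acts on mitochondrial stress genes, had 139.6 and 100.4 CPM in light against 47.3 and 60.8 CPM in heavy polysomes. Its log2 change of −1.14 (SE 0.24, adjusted p = 0.000381) came from culture values of −1.56 and −0.72. PPP1R15A, the stress-induced phosphatase subunit also called GADD34, fell from 949 and 819 CPM to 400.2 and 502 CPM (log2 −0.98, SE 0.28, adjusted p = 0.00476). PPP1R15B, the constitutive subunit, had 111 and 83.8 CPM in light and 99.996 and 97.8 CPM in heavy polysomes. Its values overlapped and its log2 change was 0.03 (SE 0.24, adjusted p = 0.922), or −0.54 with library size without TMM (adjusted p = 0.0628), where the median of all genes was −0.60.

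Among the target genes ASNS, which makes asparagine, moved the other way. It had 26.2 and 22.6 CPM in light and 244 and 121 CPM in heavy polysomes of shNSi cells, with no overlap. The log2 change was 2.84 (SE 0.32, adjusted p = 3.34e-07), at the 97.6th percentile of genes. CHAC1, which breaks down glutathione, had 28.9 and 17.6 CPM against 12.4 and 6.16 CPM (log2 −1.38, SE 0.27, adjusted p = 0.000179), and TRIB3, a pseudokinase that restrains ATF4, had 57.2 and 49.2 CPM against 34.8 and 20.2 CPM (log2 −1.01, SE 0.24, adjusted p = 0.00105). For both, each heavy library was under each light one. DDIT4, an inhibitor of mTORC1 signalling also called REDD1, went from 291 and 314 CPM to 188 and 151 CPM (log2 −0.86, SE 0.28, adjusted p = 0.0105), a call that was lost without shNSi replicate 2 (−0.76, adjusted p = 0.0503). SESN2, a leucine sensor that also restrains mTORC1, had 16.9 and 20.1 CPM in light and 24.9 and 20.9 CPM in heavy polysomes, and its change of 0.31 was not called (adjusted p = 0.227).

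**Figure D3:**
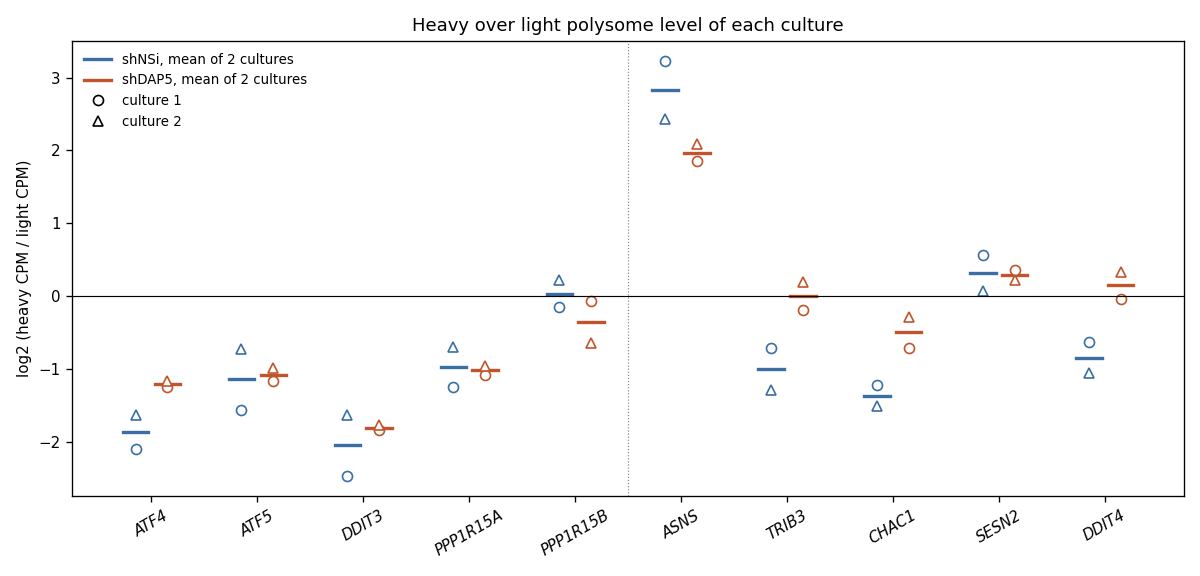
Log2 ratio of heavy to light CPM in each culture (circle, culture 1; triangle, culture 2; line, mean of the 2). ATF4, ATF5, DDIT3, PPP1R15A and CHAC1 are below 0 in all 4 cultures and ASNS and SESN2 are above 0 in all 4, while TRIB3 and DDIT4 are below 0 in both shNSi cultures and near 0 in shDAP5.

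The moderate pool of shNSi cells gave an intermediate point. Against light polysomes 5 of the 10 mRNAs were called, where 32.3% of genes were, 16% higher and 16.3% lower. ATF4 (594 and 344 CPM in the moderate pool, log2 −1.33, adjusted p = 0.00285), ATF5 (53.0 and 43.6 CPM, −1.31, adjusted p = 0.000925), DDIT3 (56.1 and 33.4 CPM, −1.53, adjusted p = 0.000468) and PPP1R15A (517 and 491 CPM, −0.81, adjusted p = 0.0317) were again lower. So the uORF mRNAs that were lower in heavy polysomes were already lower in the moderate pool. ASNS was higher (36.7 and 50.1 CPM, 0.89, adjusted p = 0.0288). The other 5, CHAC1 (−0.50), DDIT4 (−0.29), TRIB3 (−0.16), SESN2 (−0.05) and PPP1R15B (−0.03), had adjusted p between 0.151 and 0.938. The calls of PPP1R15A and ASNS were the fragile ones: PPP1R15A lost its call without shNSi replicate 1 (−0.75, adjusted p = 0.0961) or replicate 2 (−0.87, adjusted p = 0.0654), and ASNS without replicate 2 (0.49, adjusted p = 0.234), with library size without TMM (0.71, adjusted p = 0.0704), with limma (0.66, adjusted p = 0.11) and with offsets for the length of the coding sequence, alone (0.58, adjusted p = 0.0836) or with the replicate block (0.53, adjusted p = 0.0579).

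From the moderate pool to heavy polysomes 3 of the 10 were called, where 37.2% of genes were, 24.1% higher and 13.1% lower, and the 5 uORF mRNAs did not pass the test. ATF4 and DDIT3 were at −0.53 each (adjusted p = 0.17 and 0.103) and ATF5 at 0.17 (adjusted p = 0.619), and of these DDIT3 alone had an unadjusted p under 0.05. PPP1R15A (−0.16), PPP1R15B (0.06), SESN2 (0.36) and DDIT4 (−0.57) had adjusted p between 0.113 and 0.875. ASNS rose further, by 1.96 (adjusted p = 4.08e-05), and TRIB3 and CHAC1 fell by 0.85 and 0.88 (adjusted p = 0.00801 and 0.0151). The 2 moderate libraries were far apart for CHAC1, with 29.2 and 8.02 CPM, and for TRIB3, with 66.9 and 33.8 CPM. Without shNSi replicate 1 the changes were −0.47 for CHAC1 and −0.83 for TRIB3, and neither was called. Without shNSi replicate 2 ATF4 was at −0.98 and DDIT3 at −0.99. These values each compare 1 heavy with 1 moderate library, so the spread between shNSi cultures is not measured in them. Under library size without TMM, DESeq2 or limma more of the 10 were called in this comparison, 6, 5 and 7, and so were more of all genes, 47.2%, 39.4% and 40.8%. With offsets for the length of the coding sequence 5 of the 10 were called, beside 32.8% of genes, among them ATF5 higher (0.60, adjusted p = 0.0477) and PPP1R15A (−0.88, adjusted p = 0.00624) and PPP1R15B (−0.72, adjusted p = 0.0075) lower, while CHAC1 was not (−0.39, adjusted p = 0.179).

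In shDAP5 cells 5 of the 10 mRNAs were called between heavy and light polysomes, where 47.1% of genes were. The 4 lower ones (22.6% of genes) were again ATF4, ATF5, DDIT3 and PPP1R15A, and ASNS was higher (24.6% of genes). ATF4 had 1336 and 1365 CPM in light and 562 and 607 CPM in heavy polysomes (log2 −1.21, SE 0.29, adjusted p = 0.00252). DDIT3 had 144 and 142 CPM against 40.1 and 41.6 CPM (−1.81, SE 0.25, adjusted p = 4.7e-05). ATF5, with 87.3 and 109.7 CPM against 38.9 and 55.1 CPM, changed by −1.08 (adjusted p = 0.00129). PPP1R15A, with 499 and 705 CPM against 236 and 363 CPM, changed by −1.02 (adjusted p = 0.00576), and PPP1R15B was at −0.34 (adjusted p = 0.258). The direction was the same in both cultures for each of these 5 genes. With only 1 shDAP5 culture left the calls of ATF4 (−1.17 without replicate 1, −1.24 without replicate 2, adjusted p = 0.0878 and 0.0744) and PPP1R15A (−0.95 and −1.07, adjusted p = 0.137 and 0.1) were lost, and ATF5 was lost without replicate 1 (−0.99, adjusted p = 0.0704).

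Of the target genes only ASNS was called between heavy and light polysomes of shDAP5 cells. ASNS had 27.1 and 27.6 CPM in light and 98.0 and 117 CPM in heavy polysomes (log2 1.97, SE 0.30, adjusted p = 7.6e-05). TRIB3 (67.7 and 55.6 CPM in light, 59.1 and 63.7 CPM in heavy), CHAC1 (42.7 and 28.9, 26.1 and 23.6) and DDIT4 (569 and 443, 556 and 558) were not called, with log2 changes of 0.01, −0.50 and 0.15. Light and heavy values overlapped for TRIB3 and DDIT4 and did not for CHAC1. SESN2 was at 0.28 (adjusted p = 0.3), with 18.6 and 20.7 CPM in light and 23.7 and 24.1 CPM in heavy polysomes.

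Whether the distribution between heavy and light polysomes differed between the lines was tested as the difference of the 2 log2 changes. TRIB3 was called, and it was the only 1 of the 10, where 17.1% of genes were called, 4.7% in its direction. Its heavy over light ratio was −0.72 and −1.29 in the shNSi cultures and −0.20 and 0.20 in the shDAP5 cultures, a difference of 1.02 (SE 0.34, adjusted p = 0.0421). With the replicate block the difference was 1.00 and not called (adjusted p = 0.0723). The call was lost without shNSi replicate 2 (0.84, adjusted p = 0.171) and without shDAP5 replicate 1 (1.21, adjusted p = 0.079) or 2 (0.82, adjusted p = 0.417). Of all genes edgeR called 0% without shNSi replicate 2, 12.3% without shDAP5 replicate 1 and 0% without shDAP5 replicate 2. DDIT4 (1.01, adjusted p = 0.0789), CHAC1 (0.88, adjusted p = 0.11), ATF4 (0.65, adjusted p = 0.307) and ASNS (−0.87, adjusted p = 0.16) did not pass. With limma DDIT4 (1.45, adjusted p = 0.0135) and ATF4 (1.17, adjusted p = 0.0199) did, where 14.4% of genes were called. Of 13 alternatives DDIT4 passed in 4 and CHAC1 in 2. DDIT3 (0.25), ATF5 (0.06), PPP1R15A (−0.04), PPP1R15B (−0.37) and SESN2 (−0.03) had adjusted p between 0.508 and 0.969. If the shDAP5 light libraries were a moderate pool, as their code has it, the shDAP5 values would stand beside heavy over moderate of shNSi cells. Set so, TRIB3 was at 0.86 (adjusted p = 0.0663), and ATF5 (−1.25, adjusted p = 0.013) and DDIT3 (−1.28, adjusted p = 0.0132) were called lower, where 24.4% of genes were called and the median of all genes was −0.19. ATF4 (−0.68), PPP1R15A (−0.86), PPP1R15B (−0.40), ASNS (0.01), CHAC1 (0.38), SESN2 (−0.08) and DDIT4 (0.72) had adjusted p between 0.116 and 0.987. Over all genes, edgeR called 0% of 15529 between the shDAP5 light and the shNSi light libraries, and 25.5% of 15431 between the shDAP5 light libraries and the shNSi moderate pool. The first share was 28.9% without shNSi replicate 1 and 0.631% with DESeq2.

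The length of the coding sequence moved with the changes on silencing. Across genes, which are not independent replicates, the change in heavy polysomes had a Spearman's rho of −0.651 with coding length (12127 genes with a length, 85.0% of those tested). The change in heavy translation efficiency had a rho of −0.709 (12471 genes, 81.1%), and the change in total mRNA one of −0.11 (12282 genes, 81.9%). For the comparisons between fractions this check across genes is void, since only 78.4% of the genes tested had a length. The 10 mRNAs span a wide range, from DDIT3 with 507 nucleotides of coding sequence, DDIT4 with 696 and CHAC1 with 792, through ATF5 with 846, ATF4 with 1053, TRIB3 with 1074 and SESN2 with 1440, to ASNS with 1683, PPP1R15A with 2022 and PPP1R15B with 2139. As an alternative, offsets that take out the dependence on coding length in each library were added to the fit. Between fractions that fit held only the 12731 genes with a length, all 10 mRNAs among them, and its values do not extend to the genes left out.

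With these offsets all 5 uORF mRNAs, and in shNSi also TRIB3 (−1.15, adjusted p = 7.67e-05) and CHAC1 (−0.96, adjusted p = 0.00117), were lower in heavy than in light polysomes. The uORF mRNAs were lower in both lines, where 57.7% of 12731 genes were called in either direction in shNSi and 48.3% in shDAP5. PPP1R15B, level without them, was at −0.96 in shNSi (adjusted p = 0.000366) and at −0.70 in shDAP5 (adjusted p = 0.00587). PPP1R15A moved from −0.98 to −1.91 in shNSi and from −1.02 to −1.37 in shDAP5. DDIT3, the shortest, moved the other way, from −2.06 to −0.90 in shNSi (adjusted p = 0.000764) and from −1.81 to −1.26 in shDAP5. ATF4 stayed at −1.96 and −1.48, and ATF5 at −0.85 and −1.16. ASNS remained higher, at 2.07 and 1.59, DDIT4 in shNSi was no longer called (−0.20, adjusted p = 0.389), and CHAC1 in shDAP5 passed the threshold (−0.51, adjusted p = 0.0493). The difference between the lines called 0 of the 10 with offsets, beside 6.17% of 12731 genes, TRIB3 being at 0.86 (adjusted p = 0.0589).

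**Figure D4:**
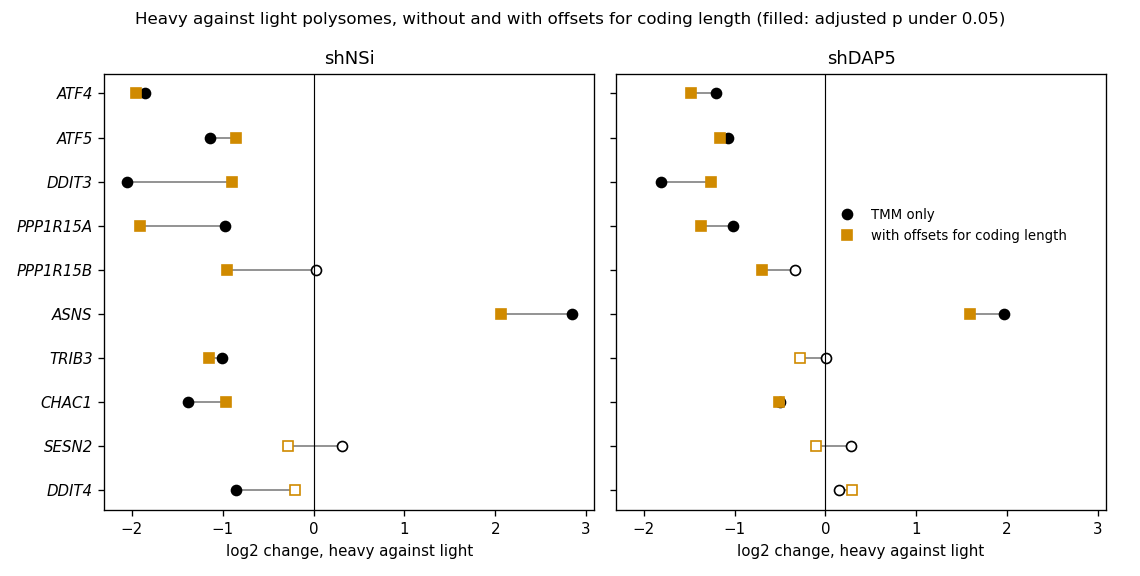
Log2 change of heavy against light polysomes in shNSi (left) and shDAP5 (right) without offsets (circles) and with offsets for coding length (squares), filled where the adjusted p was under 0.05. With offsets the 5 uORF mRNAs lie between −1.96 and −0.70, and ASNS stays above 1.5.

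The effect of silencing DAP5 was then compared fraction by fraction, shDAP5 minus shNSi. In total mRNA 1 of the 10 genes was called, DDIT4, where 0.354% of 14992 genes were, 0.0867% in its direction. It had 221 and 201 CPM in shNSi and 505 and 399 CPM in shDAP5, with both shDAP5 cultures above both shNSi cultures, and the log2 change was 1.13 (SE 0.18, adjusted p = 0.0172). Without shDAP5 replicate 1 it was 0.93 (adjusted p = 0.636), with offsets for coding length 1.09 (adjusted p = 0.0792), and with limma 1.20 (adjusted p = 0.122). Each library is a pool of cells, so fewer cells holding an mRNA and less of it in each cell cannot be told apart.

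ATF4 had 679 and 561 CPM in total mRNA of shNSi and 797 and 692 CPM of shDAP5 cells, a change of 0.29 (SE 0.17, adjusted p = 0.552) with no overlap of the cultures. PPP1R15A had 571 and 645 CPM against 322 and 417 CPM, both shDAP5 cultures being lower, a change of −0.69 (SE 0.18, adjusted p = 0.0988). That gene passed the threshold with DESeq2 (−0.71, adjusted p = 0.0417), with the replicate block (−0.70, adjusted p = 0.0163), with offsets and the block (−0.67, adjusted p = 0.044), with no filter on low counts (−0.72) and without shNSi replicate 1 (−0.80, adjusted p = 0.046). The other uORF mRNAs were at −0.33 (ATF5), 0.09 (DDIT3) and 0.05 (PPP1R15B). CHAC1 (0.72, adjusted p = 0.349), TRIB3 (0.55, adjusted p = 0.339), ASNS (0.43, adjusted p = 0.72) and SESN2 (0.31, adjusted p = 0.627) had positive changes that did not pass. ASNS depended on the shNSi culture used, at 1.08 without shNSi replicate 1 (adjusted p = 0.0123, where 2.47% of genes were called) and −0.04 without shNSi replicate 2. Over the 5 target genes the median was 0.55 and over the 5 uORF mRNAs 0.05, beside 0.01 for all genes. The target median was 1.08 without shNSi replicate 1 and 0.31 without shNSi replicate 2.

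In heavy polysomes ATF4 and 3 target genes, TRIB3, CHAC1 and DDIT4, were higher in shDAP5 cells, 4 of the 10 genes. Of all genes 30.9% of 14270 were called, 14.2% in that direction. DDIT4 had 188 and 151 CPM in shNSi and 556 and 558 CPM in shDAP5 cells (log2 1.90, SE 0.37, adjusted p = 2.3e-05), the 98.8th percentile of genes. CHAC1 had 12.4 and 6.16 CPM against 26.1 and 23.6 CPM (1.60, SE 0.35, adjusted p = 0.000186). TRIB3 had 34.8 and 20.2 CPM against 59.1 and 63.7 CPM (1.34, SE 0.34, adjusted p = 0.00099). For all 3 genes the shDAP5 cultures lay above the shNSi cultures without overlap. An exact two-sided permutation test gives such a separation p = 0.333, and its share over all genes was not counted. Separation of cultures is therefore given as a description only. ATF4 had 329 and 299 CPM against 562 and 607 CPM, again without overlap (1.08, SE 0.37, adjusted p = 0.0163).

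The other 6 did not pass. DDIT3 had 30.8 and 29.1 CPM in shNSi and 40.1 and 41.6 CPM in shDAP5 heavy polysomes (0.63, adjusted p = 0.131), with no overlap. It was at −0.16 with offsets for coding length and at −0.13 with the shNSi moderate pool as control. ASNS had 244 and 121 CPM against 98.0 and 117 CPM (−0.59, adjusted p = 0.173), PPP1R15A 400.2 and 502 CPM against 236 and 363 CPM (−0.40, adjusted p = 0.404). SESN2 (0.25), PPP1R15B (0.08) and ATF5 (−0.01) had adjusted p of 0.603, 0.881 and 0.981. The median was 1.34 over the target genes and 0.08 over the uORF mRNAs, beside 0.09 for all genes. Over the target genes it was 0.68 with the shNSi heavy and moderate counts summed as control and 0.43 with the moderate pool. The calls rested on few libraries and on the control. ATF4 lost its call with any 1 culture left out (0.97 to 1.09, adjusted p from 0.0635 to 0.177), TRIB3 without shNSi replicate 2 (0.97, adjusted p = 0.0955) or shDAP5 replicate 2 (1.25, adjusted p = 0.116), CHAC1 without the same (1.15 and 1.64, adjusted p = 0.0576 and 0.0993) and DDIT4 without shDAP5 replicate 2 (1.87, adjusted p = 0.0779). Of all genes 23.7% and 14.1% were called without shNSi replicate 1 and 2, 19.9% without shDAP5 replicate 1 and 0.0134% (2 of 14891) without shDAP5 replicate 2. With the shNSi heavy and moderate counts summed as control DDIT4 alone was called (1.44, adjusted p = 0.015, where 2.77% of genes were), and with the moderate pool alone none of the 10 was (0.344% of genes), ATF4 being at 0.32, TRIB3 at 0.29, CHAC1 at 0.42 and DDIT4 at 1.14 (adjusted p = 0.564). ASNS depended on both, at −0.08 without shNSi replicate 1, −1.04 and called without shNSi replicate 2 (adjusted p = 0.0488), 0.16 with the summed control and 1.32 with the moderate pool (adjusted p = 0.177). With offsets for coding length the same 4 genes were called, where 11.6% of genes were, at 0.87 for ATF4, 1.17 for TRIB3, 1.15 for CHAC1 and 1.32 for DDIT4 (adjusted p = 0.0475, 0.0218, 0.0374 and 0.0119).

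**Figure D5:**
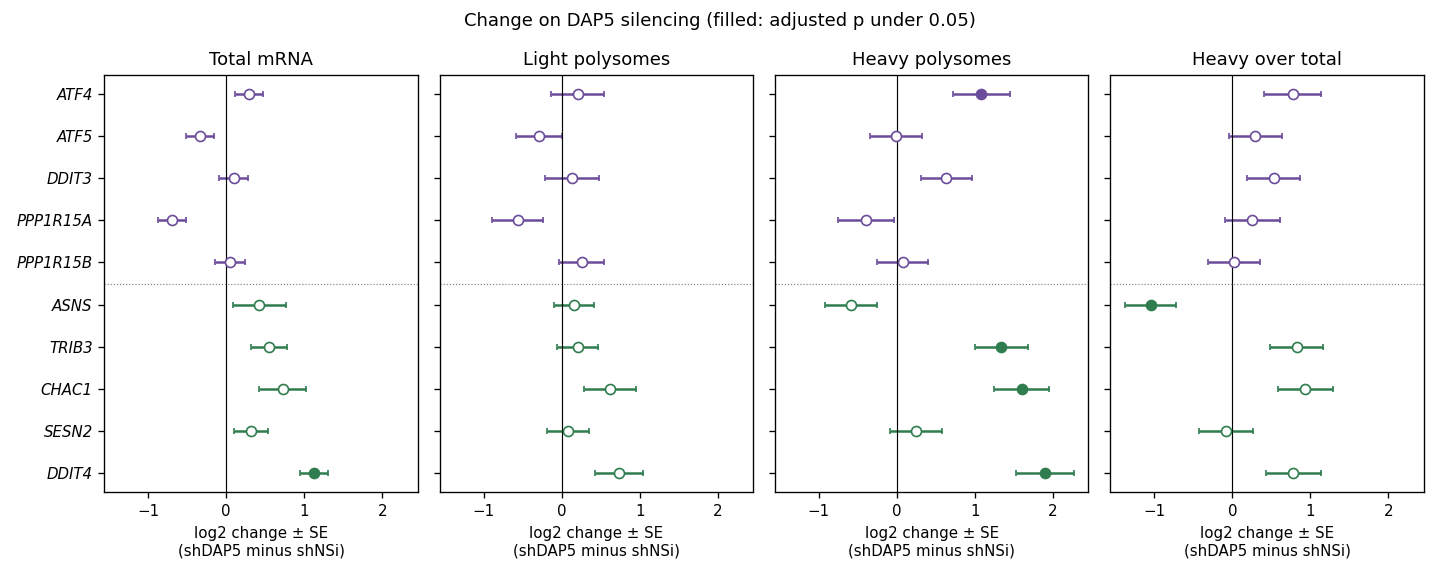
Log2 change on DAP5 silencing with its standard error for the 10 genes in total mRNA, light polysomes and heavy polysomes and in the heavy over total ratio, filled where the adjusted p was under 0.05. The filled points are DDIT4 in total mRNA, ATF4, TRIB3, CHAC1 and DDIT4 in heavy polysomes and ASNS, below 0, in heavy over total.

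In light polysomes none of the 10 genes was called by edgeR, nor by DESeq2 or limma, and 1, DDIT4, had an unadjusted p under 0.05. Of all 15529 genes 0% were called by edgeR, 1330 had an unadjusted p under 0.05, and DESeq2 called 98 and limma 0. DDIT4 had 291 and 314 CPM in shNSi and 569 and 443 CPM in shDAP5 cells (0.74, SE 0.31, adjusted p = 0.571), and CHAC1 28.9 and 17.6 CPM against 42.7 and 28.9 CPM (0.62, adjusted p = 0.619). ATF4 overlapped, with 1407 and 926 CPM against 1336 and 1365 CPM (0.21, adjusted p = 0.872). PPP1R15A had both shDAP5 cultures lower (−0.56, adjusted p = 0.645). The rest were at −0.29 (ATF5), 0.13 (DDIT3), 0.26 (PPP1R15B), 0.16 (ASNS), 0.21 (TRIB3) and 0.08 (SESN2). Set against the shNSi moderate pool instead, the shDAP5 light libraries held more ATF4 (1.53, adjusted p = 0.0268), ATF5 (1.03, adjusted p = 0.0416) and DDIT3 (1.68, adjusted p = 0.0155), where 25.5% of 15431 genes were called. Without shNSi replicate 1 the light comparison called 3 of the 10, CHAC1, DDIT3 and DDIT4, each higher in shDAP5, and 28.9% of all genes.

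Translation efficiency, the ratio of polysome to total mRNA within a culture, was compared last. For heavy polysomes 1 of the 10 genes was called, ASNS, where 13.1% of 15374 genes were, 8.23% in its direction and 4.85% in the other. Its heavy over total log2 ratio was 1.36 and 1.48 in the shNSi cultures and 0.18 and 0.27 in the shDAP5 cultures, a change of −1.05 (SE 0.33, adjusted p = 0.0309). Both shDAP5 cultures were lower, and the total mRNA of ASNS differed widely between the shNSi cultures, with 95.0 and 43.6 CPM. The call was lost without shNSi replicate 1 (−1.14) or 2 (−0.99) and without shDAP5 replicate 2 (−1.13), fits in which fewer of all genes were called too. It was also lost with offsets for coding length (−0.81, adjusted p = 0.0532, 3.68% of genes called) and with the replicate block (−1.05, adjusted p = 0.115, 4.48% of genes called). The change was −0.25 with the shNSi heavy and moderate counts summed as control and 0.79 with the moderate pool. With either of these controls 0% of genes were called.

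CHAC1 (0.94, adjusted p = 0.0668), TRIB3 (0.83, adjusted p = 0.0946), DDIT4 (0.78, adjusted p = 0.122) and ATF4 (0.77, adjusted p = 0.141) had positive changes in heavy translation efficiency that did not pass. With the summed control they were at 0.41, 0.30, 0.45 and 0.45, and with the moderate pool at −0.05, −0.18, 0.06 and 0.08, so their sign depended on the control for CHAC1 and TRIB3. The ATF4 ratio was −1.04 and −0.91 in the shNSi cultures and −0.50 and −0.19 in the shDAP5 cultures. DDIT3 (0.53), ATF5 (0.29), PPP1R15A (0.26), PPP1R15B (0.02) and SESN2 (−0.08) had adjusted p between 0.293 and 0.978. Without shDAP5 replicate 1 the comparison called 4 of the 10, CHAC1, TRIB3 and DDIT4 higher and ASNS lower, and 28.5% of all genes. For light polysomes edgeR, DESeq2 and limma called none of the 10, with 0 at an unadjusted p under 0.05, and 0% of 15967 genes by edgeR. The uORF mRNAs were at −0.03 (ATF4), 0.08 (ATF5), 0.13 (DDIT3), 0.15 (PPP1R15A) and 0.25 (PPP1R15B), and the target genes at −0.34 (ASNS), −0.33 (TRIB3), −0.08 (CHAC1), −0.20 (SESN2) and −0.36 (DDIT4). Without shNSi replicate 1 ASNS was at −0.79. Against the shNSi moderate pool 4 were called, where 27.5% of 15859 genes were, ATF4 (1.33, adjusted p = 0.0193), ATF5 (1.40, adjusted p = 0.00386) and DDIT3 (1.67, adjusted p = 0.0021) higher and ASNS lower (−1.14, adjusted p = 0.0461).

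The wider pathway was read from lists of further genes. Of 31 further ATF4 target genes 28 were tested, and in heavy against light polysomes of shNSi cells 16 were higher and 8 lower, beside 34.7% and 30.5% of all genes. The enzymes of serine synthesis PHGDH (log2 3.20, adjusted p = 1.74e-07) and PSAT1 (2.29, adjusted p = 1.32e-05) were the highest, as ASNS was among the 10, and the small stress regulator NUPR1 (−1.84, adjusted p = 9.56e-06) and the transcription factor JDP2 (−1.25, adjusted p = 9.43e-05) the lowest. On silencing 5 were higher and 5 lower in heavy polysomes, beside 14.2% and 16.7% of all genes, with the amino acid transporters SLC7A1 (−1.73, adjusted p = 9.65e-05) and SLC7A11 (−1.72, adjusted p = 2.52e-05) at the lower end and NUPR1 (1.14, adjusted p = 0.00502) and CEBPB (1.08, adjusted p = 0.00968) at the upper. The median over the 28 was −0.19, beside 0.09 for all genes. These further lists were not read with offsets for coding length. In total mRNA their median was 0.13, beside 0.01 for all genes.

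Of 9 further uORF mRNAs 8 were tested, and 2 were higher and 2 lower in heavy than in light polysomes of shNSi cells, where 65.2% of all genes were called. SLC35A4, whose leader holds many upstream start codons, was lowest in both lines (−1.38, adjusted p = 0.000145 in shNSi and −1.33, adjusted p = 0.00049 in shDAP5), and EPRS, the glutamyl-prolyl-tRNA synthetase, was highest in shNSi (2.85, adjusted p = 1.45e-07). On silencing EPRS was the only 1 of the 8 called in heavy polysomes, at −1.91 (adjusted p = 1.27e-05). Of the 10 eIF2 kinases and their regulators 4 were lower in heavy polysomes on silencing, DNAJC3 (−1.63, adjusted p = 6.51e-05) and GCN1 (−1.62, adjusted p = 0.00015) the most, beside 16.7% of all genes lower. The reinitiation factors MCTS1, DENR and EIF2D were all lower in heavy than in light polysomes of shNSi cells (median −0.96), beside 30.5% of all genes, and MCTS1 was higher in heavy polysomes on silencing (1.00, adjusted p = 0.0144).

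The profile of ATF4 over the 14 libraries was finally set beside those of 9388 genes with a mean of at least 10 CPM. The genes most like it by Pearson's r of log2 CPM were CCDC167 (0.994), SMIM10L1 (0.994) and FAM120AOS (0.993). Of the 10 genes DDIT3 was closest, at 0.956 and rank 263 among the genes compared. CHAC1 (0.81), ATF5 (0.77), TRIB3 (0.70) and DDIT4 (0.62) followed, PPP1R15A was at 0.44 and PPP1R15B at 0.36, and SESN2 (−0.30) and ASNS (−0.71) were negative. The points share cultures, fractions and library composition, and the values are descriptions.

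Some of the counts may hold reads of neighbours, since how strand was treated in counting is known only from the name of the count file, which holds the letters rev and may mean counting on the reverse strand. In the annotation DDIT3 overlaps MARS and MBD6 on the other strand and AC022506.1 and MIR616 on its own, ATF5 overlaps IL4I1, NUP62 and AC011452.1 on the other strand and MIR4751 on its own, DDIT4 overlaps its antisense gene, PPP1R15B overlaps an antisense gene, and ASNS a pseudogene on the other strand and a non-coding transcript on its own. ATF4, PPP1R15A, TRIB3, CHAC1 and SESN2 overlap no other annotated gene.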

How the data were processed

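RNA sequencing libraries of total and polysome-associated mRNA from MB-231-shNSi and MB-231-shDAP5 cells were analysed from the read counts of each gene symbol that the authors deposited, as whole numbers without normalization. The submitters' processing notes name STAR 2.6.0a, limma and hg19, and the name of the count file holds the words featurecounts and rev, which may stand for featureCounts and counting on the reverse strand. No other source used here gives the counting tool or its strand setting. With 25899838 counts or more in every library, depth limits low genes only, and the 2 cultures in a group limit the precision.

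Counts were analysed in R 4.3.3 with edgeR 4.0.16 (filterByExpr, TMM, robust quasi-likelihood test), 1 fit for the 4 libraries of a fraction. For translation efficiency the shRNA effect on the polysome to total ratio was tested in 8 libraries with culture terms, and contrasts between polysome fractions came from 1 fit of all 14 libraries with culture terms. P-values were adjusted by Benjamini-Hochberg over all genes tested, at a threshold of 0.05. When tested on simulated data, it recovered, at a log2 change of 1.5, 74.0% of 192 changed genes among 14041 in heavy polysomes, with 4.05% of its calls false, and 22.3% of 197 among 14969 in heavy translation efficiency, with 10.2% false. Same-numbered cultures of the lines did not deviate together (r across genes between −0.09 and 0.05), so replicate numbers were not used as pairs. CPM are TMM-scaled. Leaders and coding lengths came from GENCODE v29 (GRCh38) by symbol, promoters from RefSeq (GRCh38.p14).

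The alternatives were DESeq2 1.42.0, library size without TMM, limma 3.58.1 on quantile-normalized log2 of CPM plus 1, no filter, a minimum of 10 counts per library, the replicate block, offsets for coding length (loess per library, span 0.5), other shNSi control pools and each culture left out in turn. Offsets with the block, the shNSi moderate pool as control for heavy polysomes and in the difference between the lines, and further transcripts were chosen after seeing the data. All 10 genes are named in every comparison. Also named are EIF4G2 in total mRNA and in heavy and light polysomes, at most the 2 lowest and 2 highest called genes of each further list, and the 3 genes most like ATF4. The genes and lists were chosen with earlier results of these data known. The Pearson's r with ATF4 used log2 of CPM plus 0.5. PECAM1, a marker listed, was not analysed here.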

Additional observations from a re-analysis of the deposited data

Results flagged for a closer look

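The heavy over light log2 ratio of TRIB3 differed between the lines by 1.02 (shDAP5 minus shNSi, adjusted p = 0.0421 for the difference in edgeR's quasi-likelihood test), with −0.72 and −1.29 in the shNSi cultures and −0.20 and 0.20 in the shDAP5 cultures. The heavy over total log2 ratio of ASNS differed between the lines by −1.05 (adjusted p = 0.0309 by the same test), with 1.36 and 1.48 in the shNSi cultures and 0.18 and 0.27 in the shDAP5 cultures. Both were singled out because the test of the difference between the lines passed its threshold. Both lost the call with 3 of the 4 cultures left out in turn. They also lost it with the replicate block (TRIB3 1.00, adjusted p = 0.0723, and ASNS −1.05, adjusted p = 0.115). Fewer of all genes were called in each of those fits as well. The part of coding length or of the choice of fraction in either was not tested beyond the alternatives given.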

How the results depend on the processing

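Of 1309 values of single genes under the alternatives, 1038 kept their direction and their side of the threshold, 68 newly passed it, 60 no longer did, 134 changed sign with neither value past it, and 9 turned with 1 of the values past it. These 9 were ATF5 in light polysomes (1.03) and ATF4 in light translation efficiency (1.33) against the shNSi moderate pool, ATF5 (−1.25) and DDIT3 (−1.28) in the difference between the lines against that pool, ASNS in heavy translation efficiency against that pool (0.79), and PPP1R15B with offsets for coding length, at −0.96 in heavy against light and −0.72 in heavy against moderate polysomes of shNSi cells, and with offsets and the replicate block at −0.96 and −0.71. Of 119 counts of the 10 genes called, 69 stayed within 1.5 times the value reported. In total mRNA (1 reported, beside 0.354% of all genes) it was 2 with DESeq2 (1.78% of all genes), no filter (2.19%), the replicate block (2.43%), or offsets with the block (0.798%). It was 0 with limma (0.0334%) or offsets (0.0814%). In heavy polysomes (4, beside 30.9%) it was 1 with the summed shNSi control (2.77%) and 0 with the moderate pool (0.344%). In light polysomes (0, beside 0%) it was 3 with the moderate pool (25.5%), and in light translation efficiency (0, beside 0%) it was 4 (27.5%). In heavy translation efficiency (1, beside 13.1%) it was 2 with at least 10 counts (19.1%). It was 0 with library size without TMM (0%), limma (2.65%), the block (4.48%), offsets (3.68%), offsets with the block (4.26%), or either other control (0%). The difference between the lines (1, beside 17.1%) gave 2 with DESeq2 (19%), no filter (8.89%) or the moderate pool (24.4%). It gave 3 with library size (16.3%) or limma (14.4%), and 0 with the block (12.5%), offsets (6.17%), or both (6.31%). Heavy against moderate (3, beside 37.2%) gave 5 with DESeq2 (39.4%), offsets (32.8%), or offsets with the block (32.3%), 6 with library size (47.2%) and 7 with limma (40.8%). Removing a culture shifted the number of the 10 genes called in several comparisons. The share of all genes called shifted in such fits as well, among them those of heavy translation efficiency and of heavy against light in shDAP5. These fits keep 1 culture of a line, so their counts cannot show how far the 10 genes in particular depend on a culture. The cause of these changes was not tested. Library size without TMM moved the median of all genes by more than 0.1, to 0.34 in heavy polysomes, 0.30 in heavy translation efficiency, −0.60 and −0.23 in heavy against light polysomes of shNSi and shDAP5, 0.30 in their difference, −0.15 in moderate against light and −0.45 in heavy against moderate. The replicate numbers share only a number. As a block they took TRIB3 in the difference to 1.00 (adjusted p = 0.0723), ASNS in heavy translation efficiency to −1.05 (adjusted p = 0.115), PPP1R15A in moderate against light to −0.81 (adjusted p = 0.0575) and PPP1R15A in total mRNA to −0.70 (adjusted p = 0.0163, newly called), and changed no other call of the 10 genes.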
